A study of Rattus norvegicus with 15 samples.

Results

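The complement and coagulation genes of the rat liver were examined across 3 diet and treatment groups. The set holds 47 named genes, taken by their symbols, and all 47 were found among the 21576 genes of the deposited expression table. Of these, 41 code for proteins made mainly by hepatocytes. The 4 macrophage-made members are C1qa, C1qb, C1qc and Cfp, and the main source of the remaining 2, C7 and Cfd, is stromal and endothelial cells and fat cells, respectively. The assignment comes from textbook knowledge and not from these data. Several hepatocyte-made members (C1r, C1s, C2, C3, C4a, C4b, Cfb, Serping1 and Pros1) are also made by other liver cells.

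Livers came from male Sprague-Dawley rats, in 3 groups of 5 libraries. The control group (CON) was fed normal chow. The high-fat group (HFD) ate base forage (66%) with added sucrose (16.7%), yolk (8.3%), lard (7%), cholesterol (2%), sodium cholate (0.3%) and propylthiouracil (0.2%), an inhibitor of thyroid hormone synthesis, for 4 weeks, and went on with it for a further 4 weeks while receiving saline. The treated group (ZXD) ate the same feed, propylthiouracil included, and was given Zexie Decoction, a herbal preparation, by mouth at 2.2 g/kg per day over the last 4 weeks. The labels list 10 rats in each group but tie no library to an animal and give no age. The p-values therefore measure only the spread between these libraries, which may be technical; no same-group pair agreed within counting noise. Rats given simvastatin were not analysed here.

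Complement is a chain of blood proteases and receptors that tags microbes and dying cells and drives inflammation. It starts from C1q bound to antibody (classical route), from sugar-binding lectins, or by slow self-activation (alternative route), and all 3 routes meet at C3 and end in a pore of C5 to C9. Clotting is a second protease chain, in which vitamin K dependent and other factors lead to thrombin and thrombin turns fibrinogen into fibrin. Circulating inhibitors and plasmin limit it. The liver makes most of these proteins, and several, fibrinogen among them, are known acute-phase proteins.

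Libraries held 12552449 to 14228052 counts. Levels are given as CPM, counts per 1000000 counts of the TMM-scaled library size, where TMM scaling sets each library against the bulk of its genes. Its factors were 0.793 to 0.867 in CON and 1.01 to 1.28 on the diet, so the scale matters for every comparison with CON. The median log2 fold change of HFD against CON over all 13163 genes tested was 0.02 on this scale and 0.44 on plain library totals. For ZXD against CON these medians were 0.03 and 0.46. Fold changes here are on the TMM scale, relative to the median gene. As a share of all counts the 47 members together went from 5.94% ± 0.86 (SD, n = 5) in CON to 7.46% ± 1.21 in HFD and 7.56% ± 1.79 in ZXD, with no test, while albumin alone went from 8.57% ± 0.63 to 4.33% ± 0.92 and 3.64% ± 1.23. In whole liver, fewer cells of a type and less RNA per cell cannot be told apart.

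Hepatocyte markers were abundant in all 15 libraries. The summed level of 8 hepatocyte markers was at least 157542 CPM in CON, 68899 in HFD and 50481 in ZXD, and at most 198195, 102862 and 109797. Of these 8 markers, 4 fell and 0 rose in HFD against CON, and 5 fell and 0 rose in ZXD against CON. Some markers of other cell types rose instead. Of 4 cholangiocyte markers 3 rose in HFD and 1 in ZXD against CON. Their summed level ran from 16.1 to 25.9 CPM over the CON libraries, 46.2 to 83.0 over HFD and 37.0 to 48.3 over ZXD. Of 7 tested markers of T, B and NK cells 4 rose in HFD and 6 in ZXD, and their summed level ran from 6.20 to 18.7 CPM over the HFD libraries and 5.92 to 42.6 over ZXD, with all CON libraries, the lowest at 1.52, below the lowest diet library. Of 9 stellate cell and fibroblast markers 1 fell in HFD and 1 rose in ZXD. The part of these cells in the members' values was not tested.

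All 6 vitamin K dependent members, 3 of the 4 other clotting factors (not F5), all 3 protease inhibitors and both mannose-binding lectins were lower in HFD than in CON livers, fibrinogen and the early classical components did not pass the test, and 1 gene, Cfd, was higher. In edgeR's quasi-likelihood test with Benjamini-Hochberg adjustment, called at an adjusted p under 0.05, 23 of the 47 members fell and 1 rose, with a median log2 fold change of -0.49. Over all genes tested 21% were called, 10% higher and 10.9% lower. All 23 lower members were hepatocyte-made: 23 of 41 fell, 0 rose and 18 did not pass the test, with a median of -0.56. None of the 4 macrophage-made members was called either way, and their median was 0.93. At an unadjusted p under 0.05, all 4 macrophage-made members and 1 hepatocyte-made member (C4b) were higher. DESeq2 called 1 of each class higher, and limma voom called 0. Of all 13163 genes, 4867 had an unadjusted p under 0.05 in either direction. DESeq2 called 3711 genes in either direction and limma voom 2141. In 22 of the 23 lower members every HFD library lay below every CON library, the exception being Mbl2, and over all genes tested 8.46% lay apart in that direction. On library totals 8 of these 23 (Mbl2, C8a, C8b, F2, F9, Klkb1, Serpinc1 and Cpb2) still passed, and all 23 kept a log2 fold change below 0. On that scale 13 members were called higher, all 4 macrophage-made ones among them, and 8 lower, where 40.9% of all genes were called higher and 3.84% lower. Without CON 4 the count of lower members was 14, and without HFD 2 and HFD 5 together it was 8.

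In ZXD against CON, 23 members were called lower and 6 higher (C1qa, C1qb, C1qc, Cfp, C4b and Cfd), against 32.7% of all genes called, 17.9% higher and 14.8% lower. Of the hepatocyte-made members 23 fell and 1, C4b, rose, and in 21 every ZXD library lay below every CON library, against 9.79% of all genes. The exceptions were Masp1 and F13b, where ZXD 2 stood at 351 and 254 CPM and the lowest CON library at 344 and 251 CPM. The median of the hepatocyte-made members was -0.63. All 4 macrophage-made members rose, with a median of 1.21, but the count was 0 without any one of CON 3, CON 5, ZXD 3, ZXD 4 or ZXD 5 and 2 without CON 2. On library totals 15 members were called higher and 13 lower, against 45.9% and 4.77% of all genes. HFD against CON and ZXD against CON share the 5 CON libraries, so neither is independent of the other, and ZXD against HFD shares libraries with both.

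No member passed the same test between ZXD and HFD (0 of 47), where 0% of all 13163 genes were called, 0% higher and 0% lower. The members' median was -0.01, against 0.02 over all genes. At an unadjusted p under 0.05 there were 2167 genes, 1 of them a member (C6). DESeq2 called 348 genes and limma voom 0, with 0 members in either. The log2 fold changes of 45 of the 47 members lay within 0.4 of 0, and for 39 members the 95% interval stayed within a 2-fold change either way. For the other 8 members the data do not exclude a difference of 2-fold.

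**Figure D1:**
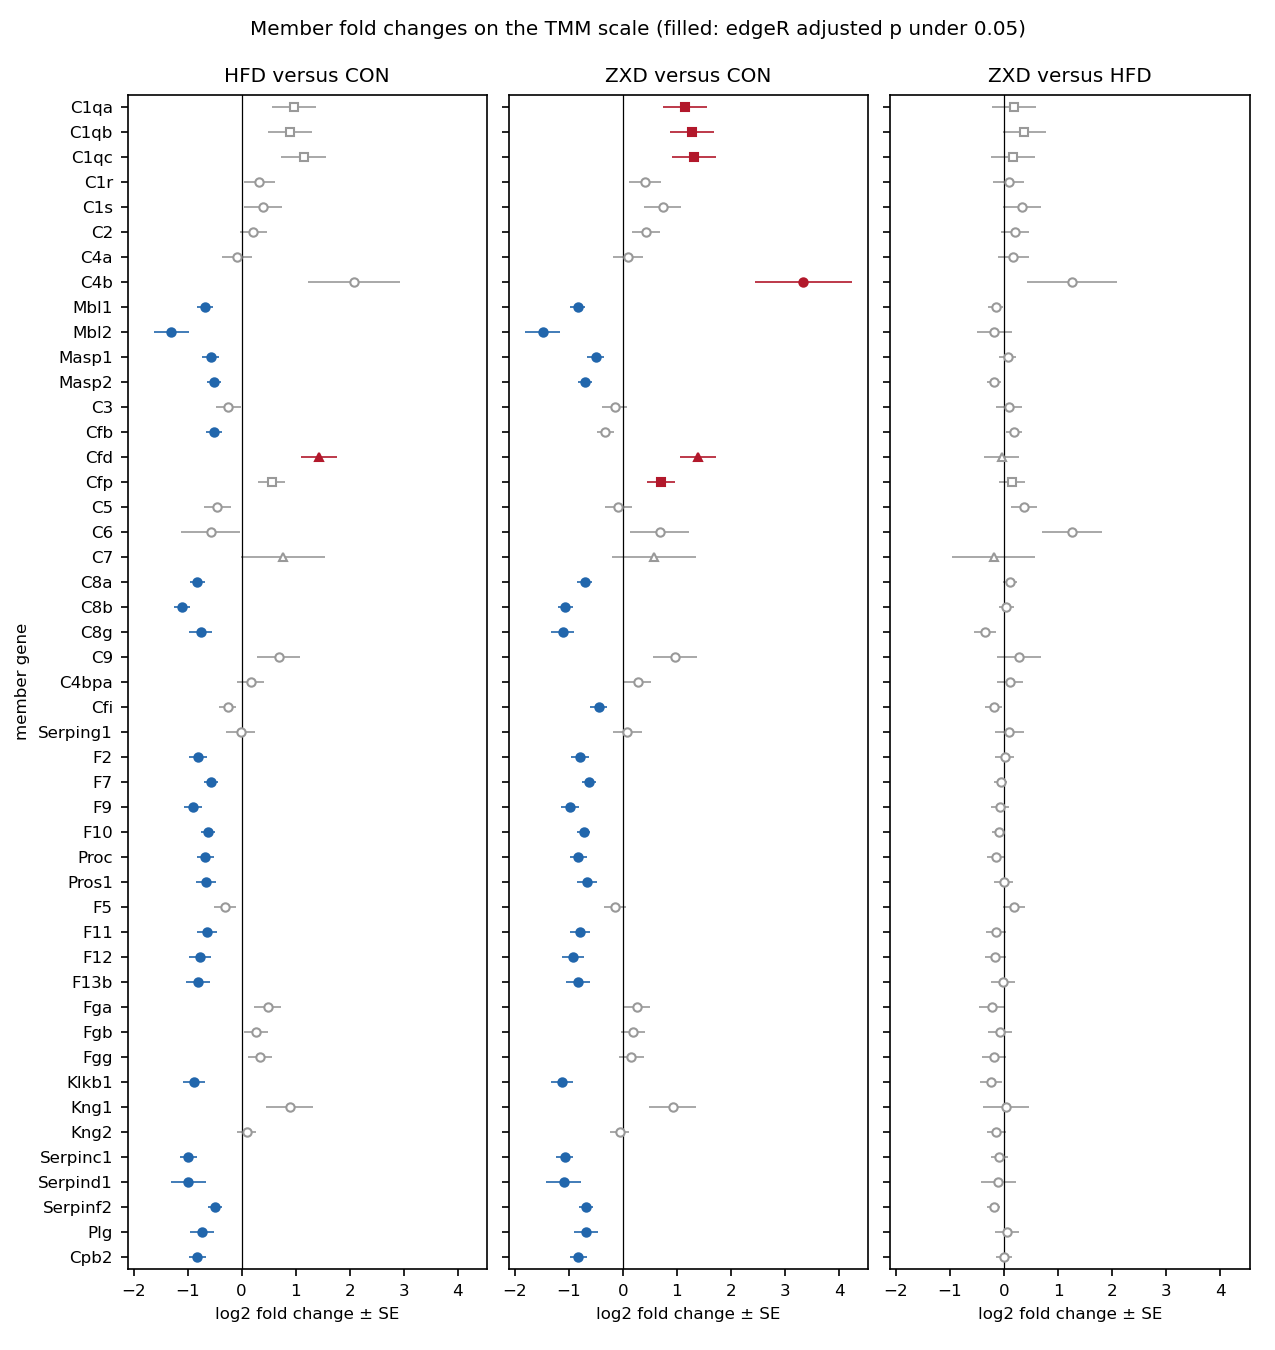
Log2 fold change ± SE (x axis, TMM scale) of each of the 47 members (y axis, ordered by role) in HFD versus CON, ZXD versus CON and ZXD versus HFD. Filled blue or red symbols passed the test as lower or higher, open grey ones did not; circles are hepatocyte-made, squares macrophage-made, triangles the other 2. The left and middle panels each hold 23 blue symbols, and the right panel holds 0 filled ones.

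C1q, which binds antibody and starts the classical route, is built of 3 chains coded by C1qa, C1qb and C1qc and made in the liver chiefly by Kupffer cells. C1qa stood at 64.0, 48.8, 28.8, 49.4 and 18.5 CPM in CON 1 to 5, 61.9, 149.8, 72.2, 32.3 and 94.6 in HFD 1 to 5, and 63.5, 47.3, 135, 110.2 and 111 in ZXD 1 to 5. C1qb stood at 61.9, 53.8, 24.1, 58.6 and 21.5 CPM in CON 1 to 5, 55.6, 142, 81.8, 31.8 and 98.0 in HFD 1 to 5, and 78.2, 53.7, 141, 126 and 133 in ZXD 1 to 5. C1qc stood at 100.4, 69.3, 44.5, 78.7 and 29.6 CPM in CON 1 to 5, 94.1, 239, 154, 47.8 and 180.3 in HFD 1 to 5, and 122, 82.2, 223, 174 and 201 in ZXD 1 to 5. In all 3 chains HFD 1, HFD 4 and ZXD 2 lay within the CON range and HFD 2 was the highest HFD library, and in ZXD libraries 3, 4 and 5 exceeded every CON library. The log2 fold changes of HFD against CON were 0.97, 0.90 and 1.15, with edgeR adjusted p of 0.0972, 0.121 and 0.059, so no chain passed. Those of ZXD against CON were 1.16, 1.27 and 1.31, with adjusted p of 0.0413, 0.0274 and 0.0255, and all 3 chains rose, although every group pair overlapped. C1qb and C1qc lost that call without any one of CON 3, CON 5, ZXD 3, ZXD 4 or ZXD 5, with an adjusted p of up to 0.0721 and 0.0679. C1qa lost it without any of these or without CON 2 or CON 4 (adjusted p up to 0.102), and limma voom did not call it (adjusted p = 0.0521).

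Cfp codes for properdin, which holds the alternative-route convertase together and is made by macrophages and neutrophils. Its level was 43.6, 35.8, 20.4, 41.6 and 18.2 CPM in CON 1 to 5, 38.5, 58.4, 53.2, 30.3 and 54.4 in HFD 1 to 5, and 46.2, 39.7, 62.5, 59.0 and 52.9 in ZXD 1 to 5. The HFD and CON ranges overlapped, and CON 3 and CON 5 were the lowest libraries. The log2 fold change was 0.56 (SE 0.25, adjusted p = 0.12) in HFD and 0.71 (SE 0.25, adjusted p = 0.0423) in ZXD against CON, by edgeR. The ZXD call was lost without any one of CON 2, CON 3, CON 5, ZXD 3, ZXD 4 or ZXD 5 (adjusted p up to 0.117).

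Summed macrophage markers were highest in ZXD 3, 4 and 5 and lowest in HFD 4, whereas the summed C1q chains were highest in HFD 2 and lowest in CON 5. All 15 markers of macrophages and Kupffer cells, a list without C1q genes, were tested. In HFD against CON 7 rose and 0 fell (median log2 fold change 0.90), and in ZXD against CON 11 rose and 0 fell (median 1.93). The CON libraries had a summed level of 784 to 1618 CPM, the HFD libraries of 708 to 2122 and the ZXD libraries of 1007 to 4342. Mpeg1 made up most of the CON sum, at a mean of 614 CPM, and Lyz2 went from 20.1 in CON to 134 in HFD and 621 in ZXD. The summed C1q chains were 12.9% ± 2.5 (SD, n = 5) of that marker sum in CON, 20.9% ± 4.8 in HFD and 15.3% ± 3.7 in ZXD. No marker of the list was at 0 in any library, and the part of macrophage number in the C1q result was not tested. Outside the members, the genes most like C1qb over the 15 libraries, by Pearson correlation of log2 CPM, were Ccl6 (0.98), Csf1r (0.96), Folr2 (0.96), Cmklr1 (0.96) and Tspan13 (0.96). These correlations are a description, and the libraries share their group differences.

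**Figure D2:**
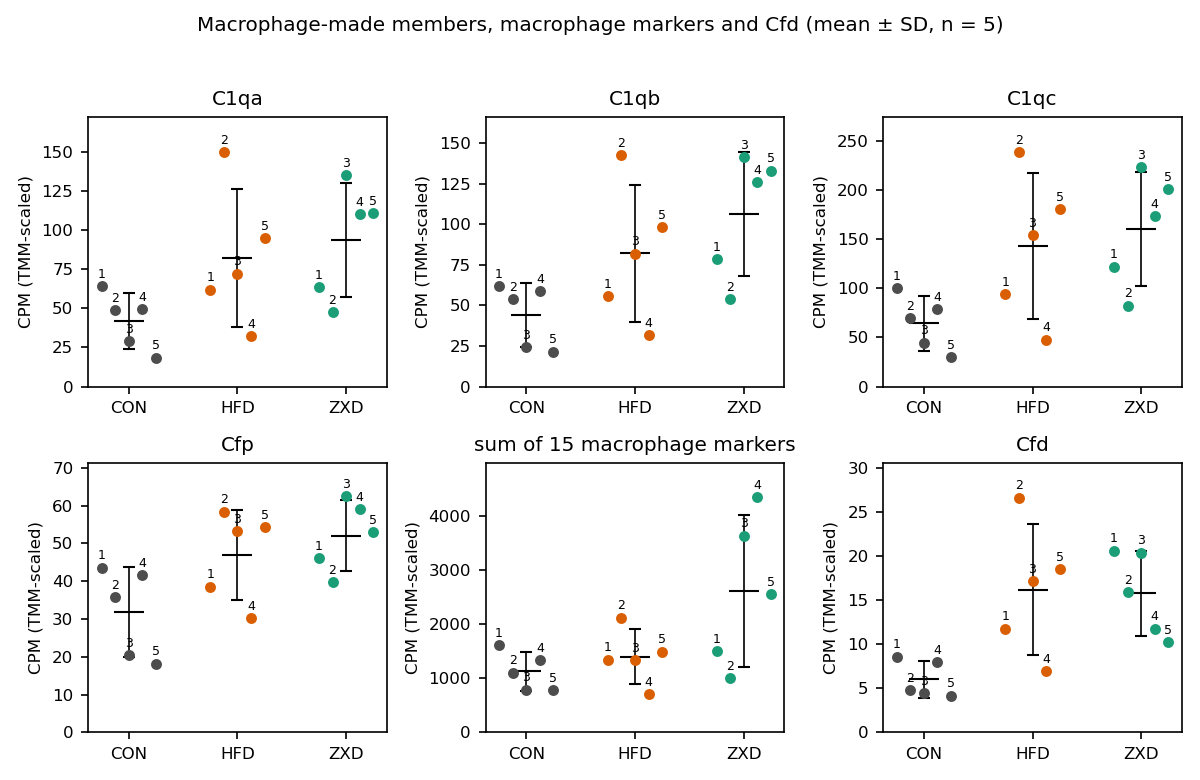
CPM (y axis, from 0) of C1qa, C1qb, C1qc, Cfp, the sum of 15 macrophage markers and Cfd in each library, by group (x axis); numbers are replicate numbers, and bars show mean ± SD, n = 5. HFD 1, HFD 4 and ZXD 2 lie within the CON range in the C1q panels, and ZXD 3, 4 and 5 lie above it.

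The other classical components, C1r and C1s (the proteases carried by C1q), C2 and C4, are made by hepatocytes. On library totals C1r was called higher in HFD (adjusted p = 0.0482) and ZXD (0.0253) against CON, by edgeR. C1s (0.0132) and C2 (0.0185) were called higher there in ZXD against CON. On the TMM scale C1r, C1s, C2 and C4a did not pass in any comparison. Their log2 fold changes of HFD against CON were 0.33, 0.40, 0.22 and -0.08, and of ZXD against CON 0.41, 0.74, 0.42 and 0.09. C4b was the exception. It read 26.2, 50.7, 6.75, 12.3 and 9.71 CPM in CON 1 to 5, 77.3, 117, 95.8, 13.9 and 144 in HFD 1 to 5, and 19.5, 22.4, 227, 271 and 533 in ZXD 1 to 5. HFD 4, ZXD 1 and ZXD 2 lay within the CON range, and the other 7 diet libraries lay above all 5 CON libraries. The log2 fold change was 2.08 (SE 0.86, adjusted p = 0.0923) in HFD and 3.34 (SE 0.90, adjusted p = 0.0124) in ZXD against CON by edgeR, so C4b rose in ZXD, while limma voom gave an adjusted p of 0.0571. Of the C4a and C4b counts together, C4b took at most 1.73% in a CON library, 5.51% in an HFD library and 10.9% in a ZXD library, and at least 0.414%, 0.664% and 0.849%. The 2 genes are near-identical and the table's C4b symbol is also listed in RefSeq as a synonym of C4a, so how their reads were split is uncertain.

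All 4 members of the lectin route fell in both comparisons with CON. Mbl1 and Mbl2 code for mannose-binding lectins, and Masp1 and Masp2 for the proteases they carry. Mbl2 stood at 167, 158, 138, 205 and 108 CPM in CON 1 to 5, 73.4, 43.8, 38.3, 118 and 41.2 in HFD 1 to 5, and 71.6, 82.7, 41.4, 34.2 and 48.1 in ZXD 1 to 5. HFD 4 lay between the lowest and the next lowest CON library, while the other 4 HFD libraries and all ZXD libraries lay below every CON library. Its log2 fold change was -1.31 (SE 0.32, adjusted p = 0.0129) in HFD and -1.48 (SE 0.33, adjusted p = 0.00472) in ZXD, by edgeR. Mbl1 stood at 217, 213, 225, 214 and 175 CPM in CON 1 to 5, 122, 128, 121, 112 and 170.2 in HFD 1 to 5, and 131, 127, 126, 87.5 and 115 in ZXD 1 to 5. No diet library reached the CON range, though HFD 5 came within 5 CPM of CON 5. Its log2 fold change was -0.68 (SE 0.14, adjusted p = 0.00455) in HFD and -0.83 (SE 0.14, adjusted p = 0.00109) in ZXD, by edgeR. Masp2 read 238, 271, 292, 288 and 277 CPM in CON 1 to 5, 191, 172, 194, 201 and 197 in HFD 1 to 5, and 178, 196, 181, 119 and 162 in ZXD 1 to 5. Every diet library was below every CON library, and ZXD 4 was the lowest. The edgeR fold changes of Masp2 were -0.51 (SE 0.13, adjusted p = 0.0132) and -0.71 (SE 0.13, adjusted p = 0.00176). Masp1 had log2 fold changes of -0.57 in HFD and -0.50 in ZXD, with adjusted p of 0.0206 and 0.0253. The Masp1 call in HFD was lost without any one of CON 2, CON 4, HFD 2 or HFD 5 (adjusted p up to 0.0553), and the call in ZXD without any one of CON 2, ZXD 1, ZXD 3 or ZXD 4 (up to 0.0659).

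C3, on which the routes converge, did not pass in either comparison with CON, and Cfb, which forms the alternative-route convertase with it, fell in HFD and did not pass in ZXD. C3 ranged from 12265 to 20700.1 CPM over the CON libraries, 8907 to 17506 over the HFD libraries and 10863 to 18330.3 over the ZXD libraries. Its log2 fold changes were -0.24 (SE 0.24, adjusted p = 0.473) and -0.15 (SE 0.24, adjusted p = 0.652), by edgeR. Cfb stood at 2605, 2583, 2034, 2599 and 2086 CPM in CON 1 to 5, 1647, 1771, 1612, 1487 and 1845 in HFD 1 to 5, and 1496, 1743, 2164, 2019 and 2107 in ZXD 1 to 5. All HFD libraries were below all CON libraries, and ZXD 3 and ZXD 5 exceeded the 2 lowest CON libraries. The Cfb fold change was -0.51 (SE 0.15, adjusted p = 0.0277) in HFD and -0.32 (SE 0.15, adjusted p = 0.111) in ZXD by edgeR, while DESeq2 called it lower in ZXD as well (adjusted p = 0.0273). The difference between ZXD and HFD itself, 0.19 (SE 0.15, adjusted p = 0.523), did not pass. The HFD call for Cfb was lost without CON 1, CON 2, CON 4 or HFD 3 (adjusted p up to 0.0745).

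Cfd codes for factor D, the protease that cleaves factor B and is known chiefly as a fat cell product. Cfd was among the lowest members, at 8.61, 4.82, 4.47, 7.98 and 4.17 CPM in CON 1 to 5, 11.8, 26.7, 17.2, 6.95 and 18.5 in HFD 1 to 5, and 20.6, 15.9, 20.4, 11.8 and 10.2 in ZXD 1 to 5. HFD 4 lay within the CON range, the other 9 diet libraries lay above it, and HFD 2 was the highest. The log2 fold change was 1.43 (SE 0.34, adjusted p = 0.00931) in HFD and 1.39 (SE 0.34, adjusted p = 0.00729) in ZXD, by edgeR, so Cfd rose in both. Without HFD 2 and HFD 5 together its HFD call was lost (adjusted p = 0.0923). Of 5 fat cell markers 1, Cidec, was abundant enough to be tested. Plin1 was at 0 in all 15 libraries, Adipoq, Lep and Retn were at 0 in all CON libraries and averaged at most 0.111 CPM in HFD and ZXD. Cidec, which fatty hepatocytes also express, had means of 107, 91.2 and 86.2 CPM in CON, HFD and ZXD.

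The terminal components split. C8a, C8b and C8g, the 3 chains of C8, fell, while C5, C6, C7 and C9 did not pass. C8b gave the lowest adjusted p of all members, with 856, 744, 653, 870.3 and 608 CPM in CON 1 to 5, 379, 353, 312, 351 and 339 in HFD 1 to 5, and 370.2, 384, 375, 276 and 381 in ZXD 1 to 5. The 10 diet libraries lay at 276 to 384 CPM, all below the lowest CON library. Its log2 fold change was -1.11 (SE 0.14, adjusted p = 0.000151) in HFD and -1.06 (SE 0.14, adjusted p = 0.000181) in ZXD, by edgeR. C8a stood at 1659, 1426, 1302, 1564 and 1209 CPM in CON 1 to 5, 836, 753, 702, 870.0 and 901 in HFD 1 to 5, and 802, 978, 864, 799 and 945 in ZXD 1 to 5. Here too the groups were apart, and the diet libraries differed little among themselves. Its fold changes were -0.82 (SE 0.14, adjusted p = 0.00112) and -0.71 (SE 0.14, adjusted p = 0.00241). C8g stood at 307, 249, 327, 303 and 293 CPM in CON 1 to 5, 161, 174, 182, 181 and 177 in HFD 1 to 5, and 161, 177, 134, 60.2 and 153 in ZXD 1 to 5. ZXD 4 was lower than the rest, by more than 2-fold. The fold change of C8g was -0.76 (SE 0.21, adjusted p = 0.0214) in HFD, a call lost without CON 3 or CON 4 (adjusted p up to 0.0579), and -1.11 (SE 0.21, adjusted p = 0.00227) in ZXD, and in ZXD against HFD it was -0.35 (SE 0.21, adjusted p = 0.403).

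C9, the pore-forming unit, varied widely between the diet libraries. It read 1339.6, 1605, 1190.4, 1374 and 1152 CPM in CON 1 to 5, 1327, 2856, 2963, 927 and 2616 in HFD 1 to 5, and 919, 1156, 3774, 3889 and 3214 in ZXD 1 to 5. HFD 1, HFD 4, ZXD 1 and ZXD 2 were within or below the CON range, and the other 6 diet libraries were above all CON libraries. Its log2 fold change was 0.68 (SE 0.40, adjusted p = 0.235) in HFD and 0.96 (SE 0.41, adjusted p = 0.0821) in ZXD. C6 stood at 266, 92.7, 70.2, 181 and 86.8 CPM in CON 1 to 5, 118, 128, 71.3, 39.9 and 111 in HFD 1 to 5, and 66.3, 49.9, 311, 280.1 and 408 in ZXD 1 to 5. ZXD 3, 4 and 5 were the highest of all 15 libraries and ZXD 1 and 2 among the lowest. C6 had the smallest p of the members in ZXD against HFD, with a log2 fold change of 1.25 (SE 0.55, adjusted p = 0.279) and a 95% interval of 0.08 to 2.43. C5 had a log2 fold change of -0.45 (SE 0.25, adjusted p = 0.199) in HFD against CON and 0.37 (SE 0.25, adjusted p = 0.449) in ZXD against HFD. C7, a product of stromal and endothelial cells, ranged from 13.5 to 51.3 CPM over the CON libraries, 0.886 to 92.9 over the HFD libraries and 8.26 to 87.9 over the ZXD libraries, and its lowest library was HFD 3. Its fold changes were 0.77 (SE 0.78, adjusted p = 0.495) and 0.57 (SE 0.77, adjusted p = 0.605).

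Of the complement regulators, Cfi, the protease that inactivates C3b and C4b, did not pass in HFD and fell in ZXD against CON. It stood at 1255, 1199.7, 1104, 1059.6 and 1027 CPM in CON 1 to 5, 892, 865, 1056, 997 and 913 in HFD 1 to 5, and 867, 971, 817, 559 and 922 in ZXD 1 to 5. HFD 3 lay among the CON libraries, and all ZXD libraries were below them. The fold change of Cfi was -0.26 (SE 0.15, adjusted p = 0.234) in HFD and -0.45 (SE 0.15, adjusted p = 0.0354) in ZXD, and the ZXD call did not hold without CON 1, 2, 3 or 4 or without ZXD 3 or 4 (edgeR adjusted p up to 0.0741). C4bpa, a chain of the C4b-binding protein, had log2 fold changes of 0.16 in HFD and 0.27 in ZXD, neither called. Serping1, which codes for the C1 inhibitor that also blocks kallikrein, read 1311, 1569, 1133, 1180.4 and 1113 CPM in CON 1 to 5, 988, 1666, 1177, 731 and 1669 in HFD 1 to 5, and 855, 829, 1546, 1585 and 1861 in ZXD 1 to 5. The diet groups held both the highest and the lowest Serping1 libraries, and the fold changes were -0.02 (SE 0.27, adjusted p = 0.968) and 0.08 (SE 0.27, adjusted p = 0.843).

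All 6 vitamin K dependent members fell in both comparisons with CON: prothrombin (F2), factors VII, IX and X (F7, F9, F10), and the anticoagulant proteins C and S (Proc, Pros1). F9 stood at 1609, 2134, 1928, 1821 and 1855 CPM in CON 1 to 5, 984, 917, 1049, 1191 and 849.9 in HFD 1 to 5, and 1179, 1078, 873, 640.3 and 965 in ZXD 1 to 5. No diet library reached the lowest CON library. Its log2 fold change was -0.91 (SE 0.17, adjusted p = 0.00247) in HFD and -0.98 (SE 0.17, adjusted p = 0.00128) in ZXD, by edgeR. F10 stood at 576, 689.9, 609, 652 and 610.1 CPM in CON 1 to 5, 371, 424, 425, 386 and 429 in HFD 1 to 5, and 361, 403, 429, 296 and 409 in ZXD 1 to 5. Its fold changes were -0.62 (SE 0.12, adjusted p = 0.00359) and -0.72 (SE 0.12, adjusted p = 0.00118). The spread of F10 within a group was small, and ZXD 4 was its lowest library. F2 stood at 3034, 2788, 2541, 2958 and 2289 CPM in CON 1 to 5, 1684, 1532, 1441, 1794 and 1340.1 in HFD 1 to 5, and 1612, 1845, 1429, 1094 and 1865 in ZXD 1 to 5. The fold changes of F2 were -0.80 (SE 0.17, adjusted p = 0.00491) and -0.79 (SE 0.17, adjusted p = 0.00392). F7 had log2 fold changes of -0.56 and -0.63, Proc -0.68 and -0.83, and Pros1 -0.66 and -0.67, with adjusted p between 0.00211 and 0.0225. Both factors that promote clotting (F2, F7, F9, F10) and factors that oppose it (Proc, Pros1) were thus among those that fell. The Pros1 call in HFD was lost without CON 2, CON 4, HFD 2 or HFD 5 (adjusted p up to 0.0604). Of 4 vitamin K cycle genes, Nqo1, a quinone reductase, rose, with 1.43 (SE 0.36, adjusted p = 0.0143) in HFD and 1.22 (SE 0.36, adjusted p = 0.0194) in ZXD, and Vkorc1l1 did not pass in either. The other two did not pass in HFD: Ggcx, the carboxylase, had a log2 fold change of -0.46 (SE 0.16, adjusted p = 0.0549) and Vkorc1, the reductase, -0.40 (SE 0.17, adjusted p = 0.0986). In ZXD against CON both fell, with log2 fold changes of -0.51 (SE 0.16, adjusted p = 0.0273) and -0.75 (SE 0.17, adjusted p = 0.00542).

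Among the other clotting factors, F11, F12 and F13b fell in both comparisons and F5, the cofactor of factor Xa, did not pass (-0.32 (SE 0.20, adjusted p = 0.274) in HFD and -0.14 (SE 0.20, adjusted p = 0.642) in ZXD). F12, which starts the contact route, stood at 908, 986, 1039, 997 and 961 CPM in CON 1 to 5, 580.3, 534, 537, 672 and 549.7 in HFD 1 to 5, and 605, 669, 495, 257 and 548 in ZXD 1 to 5. ZXD 4 was the lowest library at 257 CPM, and the lowest CON library held 908 CPM. The fold changes of F12 were -0.77 (SE 0.20, adjusted p = 0.0156) and -0.93 (SE 0.20, adjusted p = 0.00421), by edgeR. F13b, the carrier subunit of the fibrin-linking factor XIII, had a log2 fold change of -0.81 (SE 0.22, adjusted p = 0.018) and -0.83 (SE 0.22, adjusted p = 0.0106), and its HFD call was lost without CON 4 (adjusted p = 0.0591). F11 had a log2 fold change of -0.65 (SE 0.19, adjusted p = 0.0257) and -0.79 (SE 0.19, adjusted p = 0.00658), and its HFD call did not hold without CON 1, 3 or 4 or without HFD 1, 2 or 5 (adjusted p up to 0.0676).

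The 3 fibrinogen chains were not called in any comparison on the TMM scale, but on library totals all 3 were called higher in HFD (adjusted p of 0.0127, 0.0305 and 0.0205 for Fga, Fgb and Fgg) and in ZXD (0.0314, 0.0357 and 0.0475) against CON, by edgeR. Fga stood at 8799, 6697, 6093, 6456 and 6473 CPM in CON 1 to 5, 7471, 10302, 12764, 6774 and 10847 in HFD 1 to 5, and 5201, 6069.7, 11178, 10223 and 8689.9 in ZXD 1 to 5. Fgb stood at 8219, 6380.0, 5652, 5763 and 6212 CPM in CON 1 to 5, 6629, 7937, 10189, 5869 and 7926 in HFD 1 to 5, and 4883, 5401, 9468, 8774 and 8139 in ZXD 1 to 5. Fgg stood at 4707, 3808, 3199, 3484 and 3581 CPM in CON 1 to 5, 3936, 5171, 6001, 3236 and 5435 in HFD 1 to 5, and 2751, 3269, 5593, 5038 and 4303 in ZXD 1 to 5. The 3 chains followed one another from library to library: in each of them HFD 3 was the highest library, ZXD 1 was the lowest, HFD 4 lay within the CON range, and ZXD 2 lay near or just under its lower end. Their log2 fold changes of HFD against CON were 0.48 (SE 0.24, adjusted p = 0.164), 0.26 (SE 0.22, adjusted p = 0.417) and 0.34 (SE 0.23, adjusted p = 0.288), by edgeR, and of ZXD against CON 0.26, 0.19 and 0.16. On library totals the 3 chains together took 1.41% ± 0.23 of counts in CON, 2.43% ± 0.56 in HFD and 2.22% ± 0.78 in ZXD. On the length-scaled FPKM level the ratio of Fgb to Fga was 158% ± 4.4 in CON, 137% ± 11.1 in HFD and 151% ± 7.2 in ZXD. The non-member genes most like Fgb over the 15 libraries were Manbal (0.89), Ifnar2 (0.86), Hpx (0.86), Ppp2r3b (0.86) and Slfn1 (0.84), of which Hpx codes for the haem carrier hemopexin.

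The fibrinogen chains and the falling clotting factors are made in the same cells, but on the TMM scale only the latter were called. Promoter sequence was therefore compared. RefSeq windows of 250 bases before the gene start, build GRCr8, were found for 32 of the 43 members looked up, 28 of them hepatocyte-made with 29 windows. Both strands were searched for CAAAGT (core of an HNF4 site), TTGCNNAA (C/EBP) and TTCNNNGAA (STAT). The windows of 6 hepatocyte-made genes, the fibrinogen chains among them, and of C1qa are printed in the direction of transcription, with every match to these 3 motifs in capitals. Fga lies at chr2:170671919-170672168, plus strand. Fgb lies at chr2:170700876-170701125, minus strand. Fgg lies at chr2:170652833-170653082, plus strand. F9 lies at chrX:143388392-143388641, plus strand. Serpinc1 lies at chr13:75790308-75790557, plus strand. C8b lies at chr5:124763864-124764113, plus strand. C1qa lies at chr5:154419934-154420183, minus strand.
Fga: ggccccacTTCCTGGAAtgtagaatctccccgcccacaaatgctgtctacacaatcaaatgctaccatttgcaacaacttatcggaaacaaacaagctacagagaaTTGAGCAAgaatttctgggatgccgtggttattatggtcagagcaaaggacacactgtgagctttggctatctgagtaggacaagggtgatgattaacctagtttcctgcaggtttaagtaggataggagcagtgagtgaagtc
Fgb: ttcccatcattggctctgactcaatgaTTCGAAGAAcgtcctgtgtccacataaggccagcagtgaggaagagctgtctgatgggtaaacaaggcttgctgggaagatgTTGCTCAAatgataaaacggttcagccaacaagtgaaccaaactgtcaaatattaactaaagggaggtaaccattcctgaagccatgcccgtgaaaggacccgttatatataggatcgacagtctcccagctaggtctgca
Fgg: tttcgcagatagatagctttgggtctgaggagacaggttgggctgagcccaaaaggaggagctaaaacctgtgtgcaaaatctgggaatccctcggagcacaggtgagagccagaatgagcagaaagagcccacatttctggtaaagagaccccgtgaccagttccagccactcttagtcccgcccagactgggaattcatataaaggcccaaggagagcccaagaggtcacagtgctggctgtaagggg
F9: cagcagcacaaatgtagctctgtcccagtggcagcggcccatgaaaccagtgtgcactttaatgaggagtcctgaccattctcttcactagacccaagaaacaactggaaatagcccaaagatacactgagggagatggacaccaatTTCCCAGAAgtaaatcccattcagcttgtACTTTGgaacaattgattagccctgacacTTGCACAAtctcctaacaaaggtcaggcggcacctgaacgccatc
Serpinc1: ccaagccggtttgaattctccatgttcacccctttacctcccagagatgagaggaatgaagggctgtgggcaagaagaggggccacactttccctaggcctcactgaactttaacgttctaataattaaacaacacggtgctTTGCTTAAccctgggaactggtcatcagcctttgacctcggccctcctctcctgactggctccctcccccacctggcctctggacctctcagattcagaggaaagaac
C8b: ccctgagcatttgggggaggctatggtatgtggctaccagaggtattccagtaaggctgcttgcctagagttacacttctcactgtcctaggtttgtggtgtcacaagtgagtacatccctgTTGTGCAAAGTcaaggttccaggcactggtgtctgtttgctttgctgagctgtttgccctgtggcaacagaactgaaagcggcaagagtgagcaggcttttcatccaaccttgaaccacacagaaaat
C1qa: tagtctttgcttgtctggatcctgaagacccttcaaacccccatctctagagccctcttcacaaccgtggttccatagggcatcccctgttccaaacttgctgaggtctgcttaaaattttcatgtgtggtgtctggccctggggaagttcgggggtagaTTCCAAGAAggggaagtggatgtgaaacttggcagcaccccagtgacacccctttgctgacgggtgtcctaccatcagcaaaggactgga
TTGCNNAA or its reverse complement was present in 12 of the 29 hepatocyte-made windows (41.4%) and in 9.22% of all 33469 windows, TTCNNNGAA in 5 of 29 (17.2%) against 7.67%, and CAAAGT in 3 of 29 (10.3%) against 12.9%. Fga has 2 windows that overlap and hold the same TTGCNNAA match, so the 12 windows with that motif belong to 11 genes. Mean GC content was 48.9% in the 29 windows and 52.2% in all. By call in HFD against CON, TTGCNNAA was in 5 of 18 windows of members that fell and 7 of 11 of those not called. These 7 windows belong to 6 genes, as both Fga windows are counted. TTCNNNGAA was in 3 of 18 and 2 of 11. CAAAGT was in 3 of 18 (C8b, F7 and F9) and 0 of 11. These counts were not tested. TTGCNNAA and TTCNNNGAA thus stood in windows of genes that fell (C8a) and of genes that did not (Fga, Fgb), while the windows of Fgg, Mbl1 and C1qb held 0 matches. The longer TTGCGCAA (C/EBP palindrome) and CAAAGTCCA (HNF4 site) were in 0 of the 29 windows, against 0.14% and 0.338% of all. In C8b the TTGCNNAA and CAAAGT matches overlap. A match is a description of letters and not of a bound factor, and no match says only that these letters are not in this window. The GAGGAAGT core of PU.1, a macrophage factor, was in 0 of the 3 windows of macrophage-made members and 2.04% of all.

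Of the contact system, Klkb1 fell and the 2 kininogens did not pass. Klkb1 codes for plasma prekallikrein, and it stood at 748, 727, 663, 727 and 753 CPM in CON 1 to 5, 376, 297, 449.7, 498 and 339 in HFD 1 to 5, and 409, 414, 273, 189 and 375 in ZXD 1 to 5. All diet libraries were below all CON libraries, with HFD 4 the highest of them. The fold change of Klkb1 was -0.88 (SE 0.21, adjusted p = 0.00851) in HFD and -1.12 (SE 0.21, adjusted p = 0.00177) in ZXD, by edgeR. Kng1, listed as a kininogen, the substrate of kallikrein, stood at 2409, 5632, 1619.9, 1576 and 2045 CPM in CON 1 to 5, 3376, 4963, 7331, 2147 and 6874 in HFD 1 to 5, and 2859, 2506, 7315, 6642 and 5944 in ZXD 1 to 5. CON 2 stood with the high diet libraries, and HFD 4, ZXD 1 and ZXD 2 were the lowest on the diet. The fold changes of Kng1 were 0.89 (SE 0.43, adjusted p = 0.148) and 0.93 (SE 0.43, adjusted p = 0.114). Kng2 ranged from 713 to 1335 CPM over the CON libraries, 856 to 1139 over the HFD libraries and 748 to 980.4 over the ZXD libraries, with log2 fold changes of 0.09 in HFD and -0.05 in ZXD. RefSeq lists the table's Kng1 symbol also as a synonym of Kng2, and Kng2 as a synonym of Kng2l1, so which kininogen gene each row counts is uncertain.

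All 3 protease inhibitors fell in both comparisons. Serpinc1 codes for antithrombin, the main inhibitor of thrombin and factor Xa. It stood at 2678, 2917, 2476, 2855 and 2278 CPM in CON 1 to 5, 1349.7, 1205, 1363, 1411 and 1322 in HFD 1 to 5, and 1259, 1552, 1203, 864 and 1381 in ZXD 1 to 5. The lowest CON library held 2278 CPM and the highest diet library 1552 CPM. The log2 fold change of Serpinc1 was -0.99 (SE 0.16, adjusted p = 0.000848) in HFD and -1.08 (SE 0.16, adjusted p = 0.000454) in ZXD, by edgeR. Serpinf2, the plasmin inhibitor, stood at 1037, 947, 796, 1064 and 809.6 CPM in CON 1 to 5, 641, 615, 664, 711 and 682 in HFD 1 to 5, and 589.8, 624, 622, 513 and 547 in ZXD 1 to 5. Its fold changes were -0.49 (SE 0.13, adjusted p = 0.0153) and -0.68 (SE 0.13, adjusted p = 0.00196), and -0.19 (SE 0.13, adjusted p = 0.438) in ZXD against HFD. Both diet groups lay apart from CON, although the HFD call was lost without CON 4 (adjusted p = 0.0587). Serpind1, heparin cofactor II, read 1171, 1029, 953, 1339 and 996 CPM in CON 1 to 5, 635, 444, 437, 798 and 457 in HFD 1 to 5, and 695, 879.8, 429.8, 177 and 387 in ZXD 1 to 5. HFD 4, ZXD 1 and ZXD 2 were the highest diet libraries and ZXD 4 the lowest by far. The Serpind1 fold change was -0.99 (SE 0.33, adjusted p = 0.0447) in HFD, a call that held in 4 of 15 fits that left out 1 library (adjusted p up to 0.104), and -1.10 (SE 0.33, adjusted p = 0.02) in ZXD.

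Both fibrinolysis members fell. Plg codes for plasminogen, the precursor of the clot-dissolving plasmin, and Cpb2 for the carboxypeptidase that slows clot lysis. Cpb2 stood at 644, 557, 651, 651 and 460.1 CPM in CON 1 to 5, 317, 309, 321, 387 and 347 in HFD 1 to 5, and 342, 432, 335, 258 and 308 in ZXD 1 to 5. Its highest diet library, ZXD 2, was below its lowest CON library. The fold changes of Cpb2 were -0.82 (SE 0.15, adjusted p = 0.00229) and -0.82 (SE 0.15, adjusted p = 0.00185), by edgeR. Plg stood at 5775, 4379, 4248, 5569.6 and 3892 CPM in CON 1 to 5, 3147, 2421, 2283, 3758 and 2749.7 in HFD 1 to 5, and 3468, 3812, 2698, 1780.0 and 3112 in ZXD 1 to 5. HFD 4 and ZXD 2 came close to the lowest CON library, and ZXD 4 was lowest. The Plg fold changes were -0.73 (SE 0.22, adjusted p = 0.0295) and -0.68 (SE 0.22, adjusted p = 0.0275). The HFD call for Plg did not hold without CON 1, 2, 3 or 4 or without HFD 2, 3 or 5 (adjusted p up to 0.0809), and the ZXD call without CON 1, CON 4 or ZXD 3 (up to 0.0639).

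**Figure D3:**
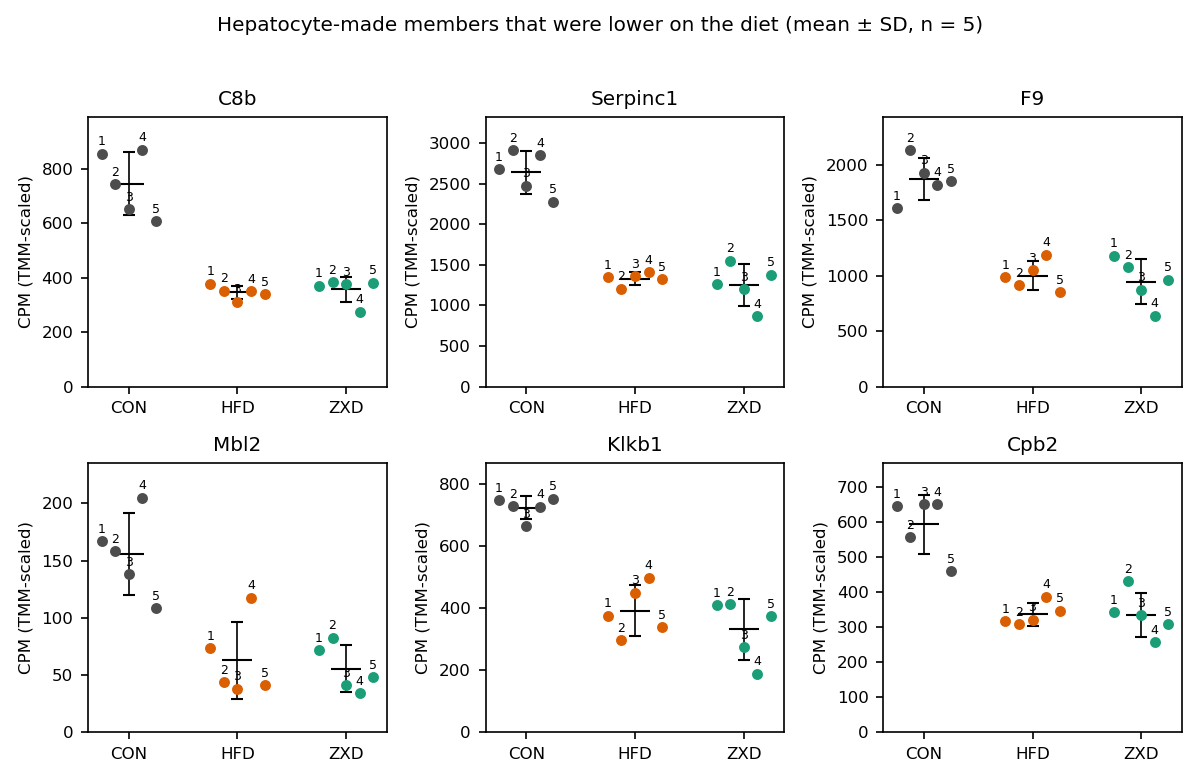
CPM (y axis, from 0) of 6 hepatocyte-made members by library and group (x axis): C8b, Serpinc1, F9, Mbl2, Klkb1 and Cpb2; numbers are replicate numbers, and bars show mean ± SD, n = 5. All 10 diet libraries lie below all 5 CON libraries in each panel except Mbl2, where HFD 4 reaches into the CON range.

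The libraries on the diet were ordered alike across many members, a pattern chosen for description after its values were seen. HFD 4, ZXD 1 and ZXD 2 were the 3 lowest of the 10 diet libraries in 14 of the 41 hepatocyte-made members: C1r, C1s, C2, C4b, C3, C5, C6, C9, C4bpa, Serping1, Fga, Fgb, Fgg and Kng1. They were the 3 highest in 6: F9, Pros1, F12, F13b, Serpind1 and Plg. Over all 13163 genes tested the same 3 libraries were lowest in 4.60% and highest in 4.70%. None of the 14 low members fell in HFD against CON, and all of the 6 high ones did, where 10.9% of all genes fell. The share that fell among all genes with the same library order was not computed, and HFD 4 is itself part of that comparison. The highest diet library exceeded the lowest by 38.3-fold in C4b, 4.97-fold in Serpind1, 4.23-fold in C9 and 2.45-fold in Fga, but by 1.39-fold in C8b and 1.39-fold in C8a. The same 3 libraries were also the lowest on the diet in the summed level of 6 neutrophil markers, at 14.9, 69.2 and 10.4 CPM, where the other 7 held 83.3 to 1891 CPM and CON 4.26 to 20.7. Lcn2, also an acute-phase product of hepatocytes, carried most of that sum, at means of 6.36 CPM in CON, 537 in HFD and 499 in ZXD. Of the 5 neutrophil markers tested, 3 (Lcn2, Csf3r and S100a8) rose in both HFD and ZXD against CON. Csf3r had means of 1.05, 4.82 and 8.95 CPM in CON, HFD and ZXD and S100a8 of 0.0179, 0.797 and 0.53, while Mpo was at 0 in all 15 libraries. The part of neutrophils or of an acute-phase state in these members was not tested.

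**Figure D4:**
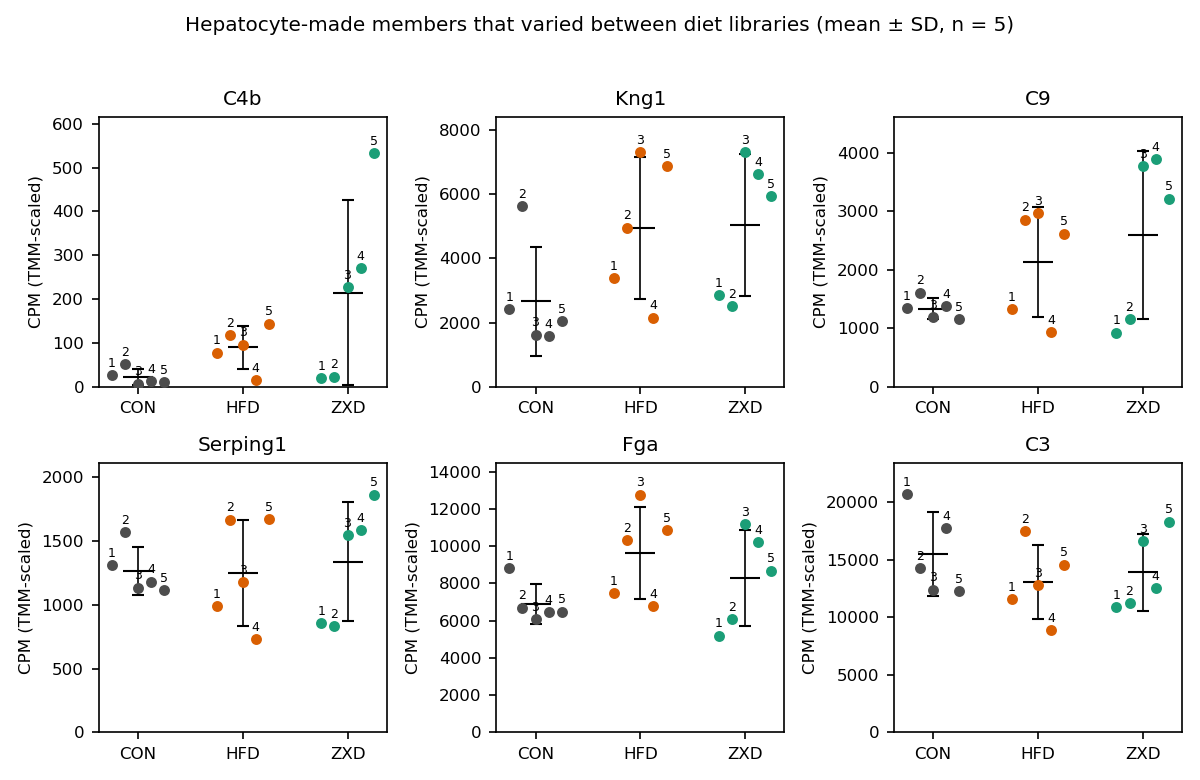
CPM (y axis, from 0) of 6 hepatocyte-made members by library and group (x axis): C4b, Kng1, C9, Serping1, Fga and C3; numbers are replicate numbers, and bars show mean ± SD, n = 5. HFD 4, ZXD 1 and ZXD 2 are the 3 lowest diet libraries in every panel.

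**Figure D5:**
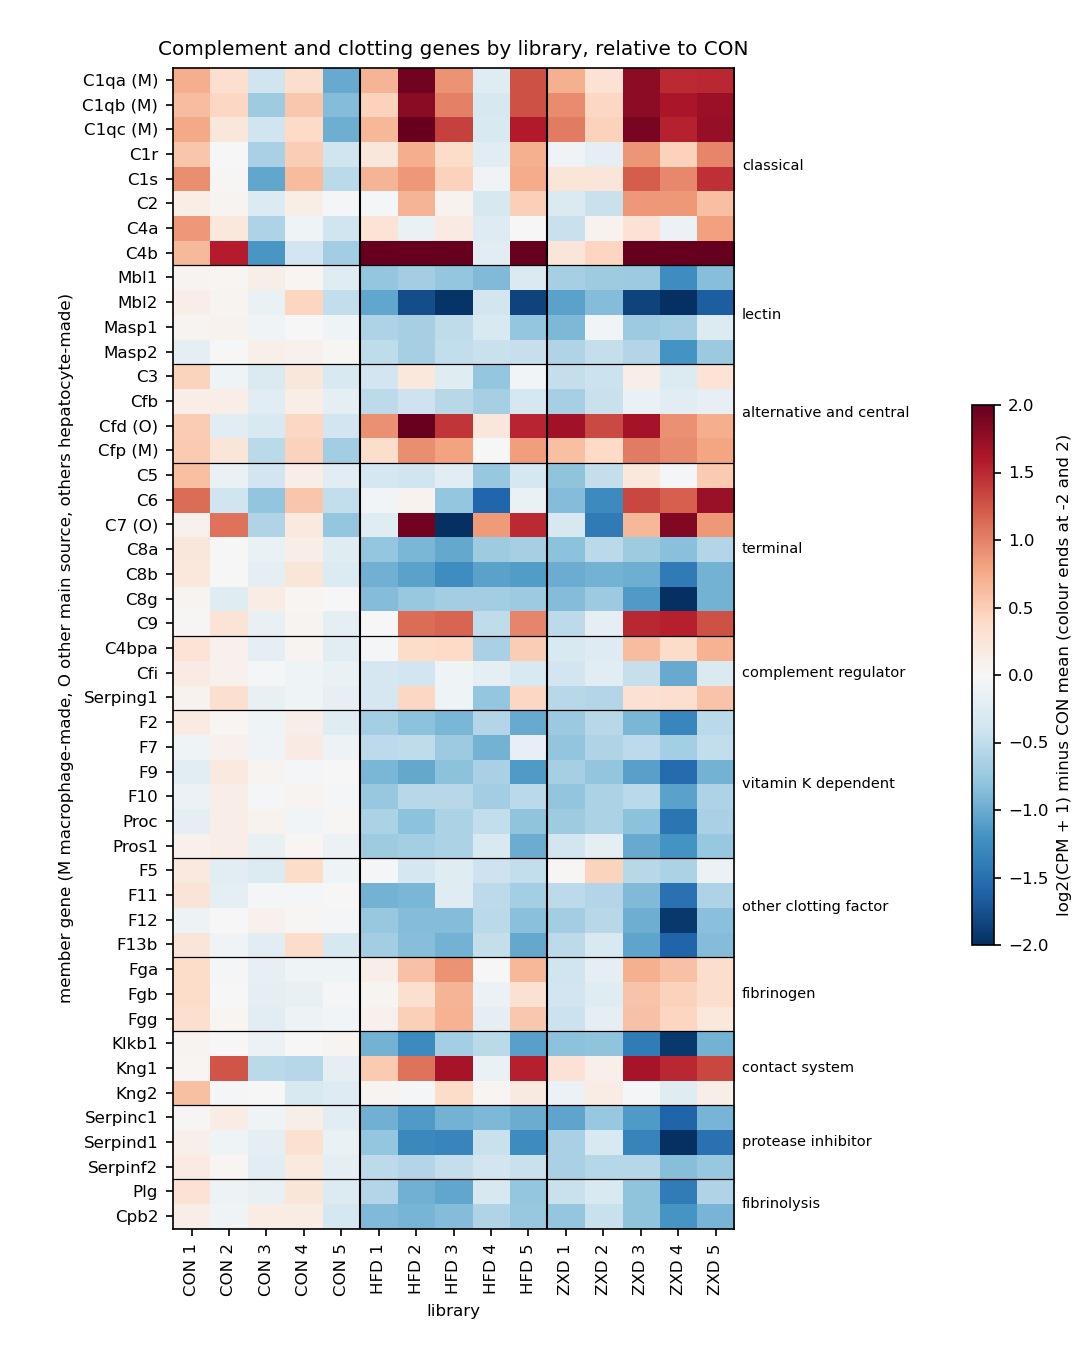
Log2(CPM + 1) minus the CON mean (colour, ending at -2 and 2) for the 47 members (y axis, grouped by role) in the 15 libraries (x axis). The vitamin K dependent factors, inhibitors and lectin-route members are blue or pale blue across the diet libraries, except Masp1 in ZXD 2, which is near the CON mean. C4b, C9, Kng1 and fibrinogen are red in some diet libraries and pale or blue in HFD 4, ZXD 1 and ZXD 2.

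Between genes, levels were compared per length, as FPKM. In CON, Fgb led at 3362 ± 565 FPKM (SD, n = 5), followed by C3 at 2504 ± 564, Fga at 2129 ± 341 and Fgg at 2021 ± 321, the last 3 of which differed by less than the SD of C3. Plg at 1441 ± 230 and Serpinc1 at 1419.6 ± 114 came next and did not differ beyond their spread. The lowest were Cfd at 5.88, C7 at 4.51 and C4b at 3.24 FPKM. In HFD the 3 fibrinogen chains took the first 3 places, followed by Kng1 at 3301 ± 1485 and C3 at 2839 ± 712, and in ZXD Kng1 took the third place, within its SD of Fga and Fgg.

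Beyond the members, 56 other genes of the cascades were listed, of which 54 were in the table and 51 were tested. In HFD against CON 6 rose (11.8%) and 8 fell (15.7%), near the 10% and 10.9% of all genes, with a median of 0.08. In ZXD against CON 18 rose (35.3%) and 13 fell (25.5%), against 17.9% and 14.8% of all genes, with a median of 0.18, and in ZXD against HFD 0 were called. Proz, the vitamin K dependent protein Z made by hepatocytes, had a log2 fold change of -0.97 (SE 0.13, adjusted p = 0.00026) in HFD and -1.09 (SE 0.13, adjusted p = 0.0001) in ZXD, and Vtn, which codes for vitronectin, an inhibitor of the terminal pore, had a log2 fold change of -0.82 (SE 0.18, adjusted p = 0.00629) in HFD. The nuclear receptor gene Nr1h4, the bile acid sensor FXR, had a log2 fold change of -1.25 (SE 0.19, adjusted p = 0.000687) in HFD and -1.37 (SE 0.19, adjusted p = 0.000309) in ZXD, by edgeR. Cebpa, a hepatocyte transcription factor, had a log2 fold change of -0.95 (SE 0.23, adjusted p = 0.0102) and -1.27 (SE 0.23, adjusted p = 0.0016), and Il6st, the signalling chain of the interleukin-6 receptor, had a log2 fold change of -0.84 (SE 0.16, adjusted p = 0.00278) in HFD. Stat3, which carries the interleukin-6 signal, rose in both, with 0.72 (SE 0.20, adjusted p = 0.0193) and 0.95 (SE 0.20, adjusted p = 0.00353). Hnf4a did not pass in HFD (-0.26 (SE 0.24, adjusted p = 0.457)) or in ZXD (-0.56 (SE 0.24, adjusted p = 0.0838)).

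Cr1l, a membrane regulator of C3 cleavage, had a log2 fold change of 0.40 (SE 0.09, adjusted p = 0.00898) in HFD and 0.61 (SE 0.09, adjusted p = 0.000523) in ZXD. Plat, the tissue plasminogen activator, had a log2 fold change of 1.46 (SE 0.74, adjusted p = 0.166) and 2.18 (SE 0.75, adjusted p = 0.038). Vwf and F8, made by endothelial cells, did not pass in HFD (0.97 and 0.34) and rose in ZXD against CON (1.07 (SE 0.38, adjusted p = 0.0444) and 0.55 (SE 0.17, adjusted p = 0.0252)). The 8 endothelial markers had 1 rise in HFD and 5 in ZXD against CON, with highest summed levels of 325 CPM in CON, 307 in HFD and 521 in ZXD and lowest ones of 79.2, 92.2 and 354, and their part in the Vwf and F8 values was not tested. Itgam, a chain of complement receptor 3 on myeloid cells, had a log2 fold change of 4.60 (SE 0.93, adjusted p = 0.00322) in ZXD.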

How the data were processed

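RNA-seq of 15 rat liver libraries (5 each of CON, HFD and ZXD) was analysed from the authors' deposited table, which holds read counts and FPKM per gene and library, per the file headers. Trizol RNA and standard Illumina libraries are stated in the labels' protocols; edgeR is named in the submitters' processing notes, without version or role. The aligner, counter, strand setting and build were not given in the sources used here. The deposited FPKM agreed within 0.01% with count per length per total, so both describe the same reads. Members and lists were chosen with earlier results of these data known.

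Genes were filtered with filterByExpr (minimum count 10, total 15), which left 13163 of 21576 genes and all 47 members, and kept at least 99.8% of counts. Counts were scaled by TMM and fitted over all 15 libraries with edgeR 4.0.16 (R 4.3.3; robust quasi-likelihood, group as the sole term), with Benjamini-Hochberg adjustment over all genes tested and calls at 0.05. Intervals are 95% from the same fit. 3 counts correspond to 0.183 to 0.285 CPM. Alternatives used DESeq2 1.42.0, limma voom 3.58.1, library totals, other filters, 2-group fits, a replicate block and left-out libraries. The code was tested on simulated data. Members with per-library values were the C1q chains, Cfp, up to 3 per role with the smallest adjusted p in HFD versus CON and the 5 smallest p in ZXD versus HFD. Serping1 was given per library outside this rule, as C4bpa of the same role had a smaller adjusted p and was not. After their values were seen, C9 was added per library, C3 and C7 as group ranges and C5 as fold changes. Other cascade genes were named by a set list and, per comparison, the 6 smallest adjusted p; some of these, and 1 planned promoter motif, are not reported here. 0 columns could not be mapped to a sample.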

Additional observations from a re-analysis of the deposited data

Results flagged for a closer look

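In 8 of the 141 pairs of member gene and group, 1 library stood apart from the other 4 by more than Dixon's limit of 0.71 for 5 samples; chance gives about 1 in 20. Mbl1 was low in CON 5 at 175 CPM (the others 213 to 225) and high in HFD 5 at 170.2 CPM (112 to 128). C8b was low in ZXD 4 at 276 CPM (370.2 to 384), and Proc was low in ZXD 4 at 264 CPM (412 to 469.9). In CON 1, Fga was high at 8799 CPM (6093 to 6697), Fgb at 8219 CPM (5652 to 6380.0) and Kng2 at 1335 CPM (713 to 880.4). Kng1 was high in CON 2 at 5632 CPM (1576 to 2409). ZXD 4 had the largest TMM factor, 1.28.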

How the results depend on the processing

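On plain library totals HFD against CON called 5895 genes, with 8 hepatocyte-made members higher, 8 lower and 4 macrophage-made members higher, and ZXD against CON called 6674 genes, with 10, 13 and 4. This scale raises every fold change against CON by construction. On it the hepatocyte-made members called higher in HFD were C1r, C4b, C9, Fga, Fgb, Fgg, Kng1 and Kng2. In ZXD they were C1r, C1s, C2, C4b, C9, C4bpa, Fga, Fgb, Fgg and Kng1. In HFD against CON the DESeq2 Wald test called 3711 genes, with 1 hepatocyte-made and 1 macrophage-made member higher. It called 2 hepatocyte-made members higher in ZXD against CON, and 348 genes in ZXD against HFD. Fitting only the 2 groups compared called 2978 genes in HFD against CON, with 1 hepatocyte-made member higher. limma voom called 0 hepatocyte-made members higher in ZXD against CON. Without HFD 2 and HFD 5 together, HFD against CON called 1043 genes and 8 lower hepatocyte-made members, with fewer samples. Apart from the scale of library totals, the cause of these differences was not tested, the one without HFD 2 and HFD 5 included.

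With a replicate block, HFD against CON called 1909 genes and 18 lower hepatocyte-made members, ZXD against CON 3466 genes, 21 lower and 0 higher hepatocyte-made and 0 higher macrophage-made members, and ZXD against HFD 0 genes. The numbers did not pair the libraries: over 15 same-number pairs the correlation of deviations was -0.55 to 0.26 (median -0.05, 4 above 0.1), and 4 of 15 libraries matched their own number best.

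Leaving out 1 library at a time gave, for HFD against CON, 1697 (without HFD 2) to 3235 genes, 14 (without CON 4) to 23 lower and 0 to 1 higher hepatocyte-made members, and 0 to 3 (without HFD 4) higher macrophage-made members. For ZXD against CON it gave 3037 to 4680 genes, 20 to 23 lower and 1 to 2 higher hepatocyte-made members and 0 to 4 higher macrophage-made members. For ZXD against HFD it gave 0 to 7 genes (7 without HFD 1) and 0 members. No called member changed sign under any of these settings. Depth was similar across libraries, so low members (Cfd, C4b, C7) carry the widest counting error, and reads shared between C4a and C4b or among kininogens cannot be told apart here.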
